A study of Mus musculus with 904 samples.

Results

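Superficial-layer excitatory nuclei made up 60 of the 904 sequenced mouse nuclei. They were chosen by a rule on CPM, a gene's reads per 1000000 reads of that nucleus. A nucleus was kept with at least 1000 genes and 10000 reads, which left 835. It was excitatory with Slc17a7 at 50 CPM or more and Gad1 under 20 CPM, which 143 nuclei met. It was superficial where Cux2 plus Rorb exceeded Foxp2 plus Fezf2 plus Tle4. The same rule put 59 excitatory nuclei on the deep-layer side and left 24 on neither side, with no read of any of the 5 layer genes. The comparison class of interneurons (Gad1 at 50 CPM or more, Slc17a7 under 20 CPM, interneuron genes above striatal ones) held 218 nuclei. These 7 genes chose the excitatory members, so their levels are described and not tested. Genes that travel with them in the same nuclei were drawn apart by the same choice.

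The nuclei came from C57Bl/6J mice given an adeno-associated virus with the PHP.eB capsid, which enters the brain from the blood. Each virus carried a fluorescent reporter with histone H2B (SYFP2, or dTomato in 1 construct name) under the enhancer DLX2.0, an element known for activity in forebrain GABAergic neurons. Injection was in young adulthood, and YFP-positive nuclei were flow-sorted 3 to 4 weeks later and sequenced one by one with SMART-Seq v4. All nuclei are labelled primary visual cortex, although the design also names motor cortex and striatum. The labels name 16 constructs, 16 virus numbers and 3 library pools. No uninjected group, animal or sex is given, so the number of mice behind the 60 nuclei is not known, and p-values over constructs may measure technical spread. Construct and virus labels cross in 67 combinations, with 4 to 5 viruses per construct, so the construct named for a nucleus is uncertain. Constructs are used below only to form sums of nuclei. All 16 constructs and 13 of 16 virus numbers held members.

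In the cortex, neurons with Slc17a7, the vesicular glutamate transporter VGLUT1, are excitatory. Cux2 is a homeobox factor of layers 2 to 4, and Rorb is an orphan nuclear receptor best known from layer 4. Foxp2 and Tle4 mark layer 6, and Fezf2 directs the identity of subcortically projecting layer 5 neurons. Upper-layer neurons mostly connect within the cortex, while many deep-layer neurons project out of it.

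The share of superficial nuclei was 7.19% of the kept nuclei (exact Clopper-Pearson 95% interval 5.53% to 9.15%, counting error only). Pool S40317 held 19 members, pool S40325 held 25 and pool S40327 held 16. Superficial nuclei were 37.3% of the superficial and deep nuclei in pool S40317 (24.1% to 51.9%), 67.6% in S40325 (50.2% to 81.99%) and 51.6% in S40327 (33.1% to 69.8%). The intervals of S40317 and S40325 overlap, but all these intervals treat nuclei as independent. Members were unevenly spread: virus AiP14031 held 16 among 94 kept nuclei and AiP13968 held 0 among 40. Members had 144952 to 528868 reads (median 228200) and a median of 3491 genes.

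Slc17a7 ran from 89.5 to 1877 CPM over the members (median 538). The member nearest the threshold had 89.5 CPM and the nearest kept nucleus outside it, at 39.4 CPM, left a gap. One member had a Gad1 read, at 1.89 CPM, and the nearest nuclei excluded by Gad1 had 549 and 631 CPM. On the layer rule the closest members were 2.3 and 3.0 CPM above the line. They had 428715 and 333055 reads in all, so each margin was a single read. Members with a Cux2 plus Rorb sum of 3.7 to 6.9 CPM were also placed by a single read. The closest deep nuclei were 1.7 and 9.9 CPM below the line, which are margins of a single read and of a few reads. Among deep nuclei the highest Gad1 level was 13.43 CPM, and the lowest Gad1 level of an interneuron was 52.61 CPM, so other nuclei lay nearer the Gad1 thresholds than the members did.

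Cux2 was read in 43 of the 60 members and Rorb in 32. Both were read in 15, Cux2 alone in 28 and Rorb alone in 17. Cux2 exceeded Rorb in 31 nuclei and Rorb exceeded Cux2 in 29. Pool S40317 was the pool with more Rorb-led (13) than Cux2-led (6) nuclei, against 9 and 16 in S40325 and 7 and 9 in S40327. Deep-layer gene reads were present in 13 members.

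**Figure D1:**
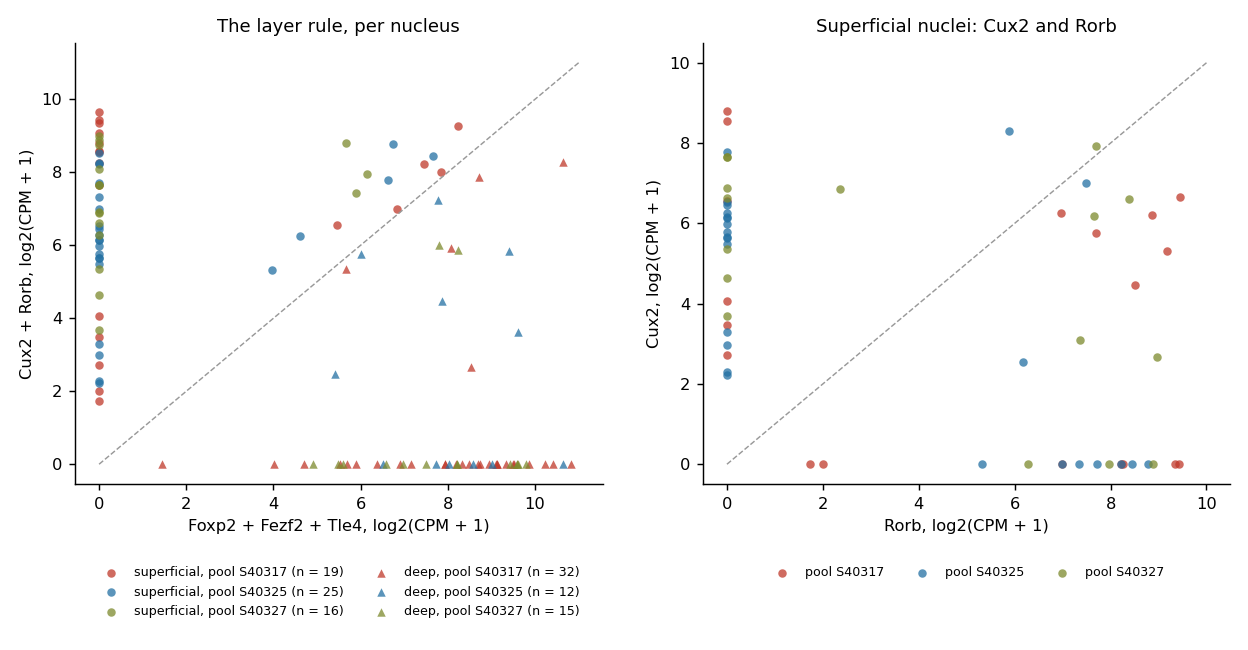
Left, Cux2 + Rorb against Foxp2 + Fezf2 + Tle4 per excitatory nucleus on log2(CPM + 1) axes, with superficial nuclei as circles, deep nuclei as triangles, pools by colour and equality dashed. Right, Cux2 against Rorb in the 60 superficial nuclei, where the 28 nuclei with Cux2 alone and the 17 with Rorb alone lie on the axes.

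Markers that the rule did not use were read in most members in step with the label, which linked expression makes part of what the rule selects. Of the 20 other upper-layer genes, all had reads in some member, and their summed level ran from 0 to 4050 CPM (median 1537), against a median of 490 CPM in deep nuclei and 738 CPM in interneurons. The median member had reads of 6 of these genes and of 3 of the 23 other deep-layer genes. More upper-layer than deep-layer genes were read in 43 members, fewer in 11 and equal numbers in 6. In deep nuclei the medians were 2 and 7 genes, and 51 of 59 had more deep-layer genes. The deep-layer genes Syt6, Ccn2, Nxph4 and Ntsr1 had no read in any member.

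Marker lists of other cells had summed levels that varied widely between members. The interneuron and GABA list (18 genes) summed to a median of 119 CPM in members (0 to 2069). Its median was 66.1 CPM in deep nuclei and 3247 CPM in interneurons. The striatal projection list (12 genes) summed to 415 CPM (0 to 2662), against 432 CPM in deep nuclei and 246 CPM in interneurons. Dlx1, Dlx2, Dlx5, Dlx6 and Dlx6os1, genes of the GABAergic lineage, had no read in any of the 60 nuclei. That allows a share of nuclei with a read of up to 5% for each gene. Gad2 was read in 2 members (3.33%), against 69.3% of interneurons and 11.5% of the 131 glial nuclei, which should lack it; after thinning every nucleus to 30000 reads the shares were 3.33%, 64.7% and 9.92%. Median depths were 228200, 258298 and 294581 reads. The share was below that of the glial nuclei, but the levels in the 2 members were 453.3 and 211.8 CPM, within the range of the interneuron sums given below. The nucleus with 453.3 CPM (nucleus 23 of SYFP2-H2B-3xU7snRNAOPT-BC, pool S40327) also had Sox6, an interneuron factor, at 164.8 CPM, Cux2 at 117.7 CPM and no read of Nrgn or of the other upper-layer genes. It was the 1 member of its construct and is in none of the sums per construct used below. Microglial and endothelial lists each had 6 of 8 genes at 0, with Cx3cr1, Csf1r and Cldn5 among them, and the precursor list had 6 of 7 at 0. The astrocyte list summed to a median of 344 CPM (0 to 7709), with 1 of 11 genes at 0. Its median was 543 CPM in deep nuclei and 0 CPM in interneurons. The oligodendrocyte list summed to 53.1 CPM (0 to 25360), with 4 of 11 genes at 0, against 29.2 CPM in deep nuclei and 0 CPM in interneurons. One nucleus set the highest oligodendrocyte sum: nucleus 29 of construct SYFP2-H2B-BORG-BC, in pool S40327, had Mobp, a myelin protein gene, at 5557 CPM, and the next member had 390 CPM. This nucleus 29 also had the most reads of any member (528868), the members' Gad1 read (1.89 CPM), and reads of Foxp2 and Tle4. The Gad2 level of 211.8 CPM belongs to a member of the same construct. Nucleus 29 is 1 of 3 members of that construct. It stays in the construct's sums against deep and interneuron nuclei and in its Rorb-led sum. Whether this library held 2 nuclei was not tested. No doublet caller was run, since each library is 1 sorted nucleus in its own well. A well with 2 nuclei could not be told apart from a well with 1.

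RNA content varied most in pool S40317. Of its 19 members, 8 had over 0.3% mitochondrially encoded reads, against none of 25 in S40325 and 1 of 16 in S40327. Malat1, a nuclear-retained long noncoding RNA, ran from 21480 to 62400 CPM in those 8 nuclei and from 130600 to 313900 CPM in the other 11 of the pool, so the ranges do not overlap. Genes per nucleus ran from 4939 to 8552 in the 8 and from 2307 to 3528 in the 11. Nrgn, a postsynaptic calmodulin-binding protein gene ran from 1693 to 3981 CPM in the 8 and from 0 to 624 CPM in the 11. Slc17a7 was similar in both, with medians of 449 and 540 CPM. The split was made on the data, and no test is given for it.

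**Figure D2:**
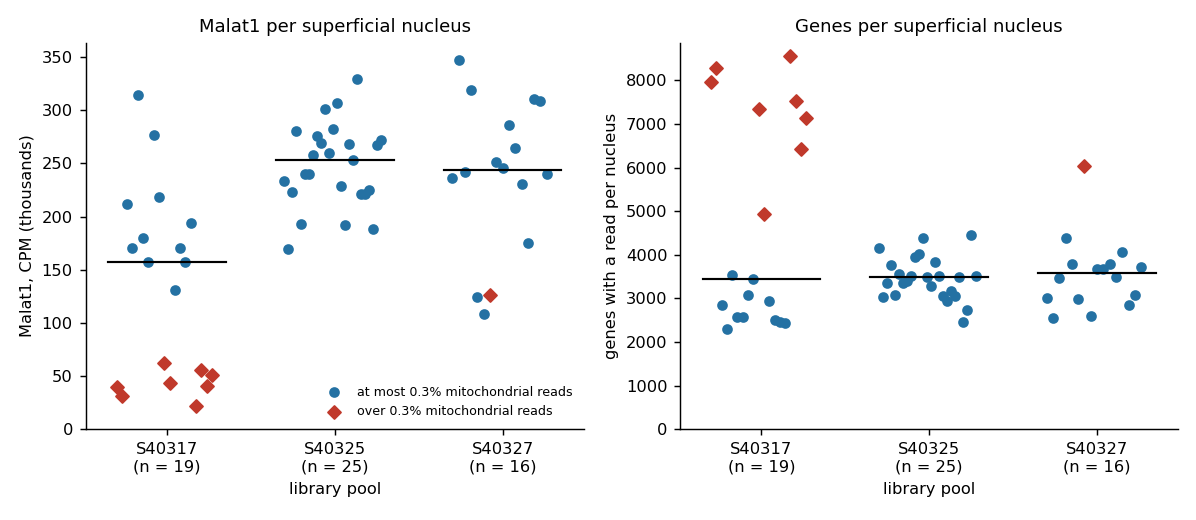
Malat1 (left, in units of 1000 CPM) and genes with a read (right) per superficial nucleus by library pool, with bars at the pool medians and red diamonds for nuclei over 0.3% mitochondrial reads. In pool S40317 the 8 diamonds reach at most 62400 CPM of Malat1 and have at least 4939 genes, apart from the other 11.

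To compare pools, reads were summed per construct within a pool (at least 3 nuclei a sum), which gave 4 sums of 15 nuclei in S40317 and 5 sums of 29 nuclei in the other pools. No construct had sums on both sides, so construct and pool cannot be told apart here. Malat1 fell in pool S40317, where its sums were at 50000, 73630, 118800 and 139200 CPM, below every sum of the other pools at 221700, 248000, 252000, 255000 and 314000 CPM. The log2 difference was -1.43 ± 0.21 (SE; edgeR quasi-likelihood test, Benjamini-Hochberg adjusted p = 0.00895). It was the one gene called of 8066 tested (0.0124%), with 305 at an unadjusted p under 0.05 (3.78%); DESeq2 called 66 and limma-voom 15. Leaving out any 1 of the 5 sums of the other pools ended the Malat1 call, at adjusted p from 0.146 to 0.323 and log2 differences from -1.33 to -1.5.

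Other genes of the pool comparison did not pass the test. Meg3, another nuclear noncoding RNA, was at 3342 to 7098 CPM in the S40317 sums and 9306 to 14910 CPM elsewhere (log2 -1.23 ± 0.25, adjusted p = 0.113 by edgeR). Nvl, a nucleolar ATPase gene, was at 65.5 to 242 CPM against 570 to 860 CPM, and Scn1a, a sodium channel gene, at 116 to 355 CPM against 549 to 1212 CPM. In the other direction, App, the amyloid precursor gene, was at 489 to 1630 CPM in S40317 and 71.6 to 362 CPM elsewhere (log2 2.74 ± 0.56, adjusted p = 0.113 by edgeR). Egr1, an immediate early transcription factor, was at 454, 500, 729 and 765 CPM in S40317 and at 0 to 84.97 CPM elsewhere. None of these 5 ranges overlap between the pools, as for 309 of the 8066 genes (2.16% higher and 1.67% lower in S40317).

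Noncoding and mitochondrial transcripts lay on opposite sides. Of 10 noncoding RNAs tested, 8 were below 0 (median log2 -1.17), and all 5 tested mitochondrial transcripts were above 0 (median 6.15), beside a median of 0.03 over all genes. mt-Nd1, a subunit of respiratory complex I, was at 0, 2612, 5610 and 6321 CPM in S40317, and at 0 in 4 of the 5 other sums and 49.04 CPM in the fifth. Lars2, the mitochondrial leucyl-tRNA synthetase gene, was at 27.4, 704, 1946 and 2797 CPM in S40317 and 37.6 to 106 CPM elsewhere. The S40317 sum low in both genes, of construct SYFP2-H2B-3xsmOPT-BC, still had Egr1 at 765 CPM. Of 13 immediate early genes tested, 12 were above 0 (median 1.43), and Homer1 and Nrgn had log2 differences of 1.88 ± 0.57 and 1.69 ± 0.46, neither called.

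The first design question was how superficial nuclei differ from deep ones beyond the genes of the rule. Sums were paired within the 7 constructs with at least 3 nuclei on each side (37 superficial and 37 deep nuclei, with 676896 to 2751912 and 1019828 to 2137049 reads per sum). By edgeR 0 of 8396 genes were called (0.0%), with 198 at an unadjusted p under 0.05 (99, or 1.18%, each way); DESeq2 called 94 genes and limma-voom 5. In simulated data of the same design the edgeR test called 12% of genes changed by a log2 of 2 and 64% of those changed by 4. Most changes of the smaller size were thus missed. The values that follow are levels per construct, and each edgeR adjusted p was 1.

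Rasgrf2, a Ras and Rac exchange factor known as a layer 2 and 3 gene, ran from 14.8 to 433 CPM over the 7 superficial sums (median 123) and from 0 to 67.8 CPM over the deep sums, of which 4 were at 0. Superficial was above deep in 7 of 7 constructs (log2 4.84 ± 1.32). Unc5d, a netrin receptor of upper-layer neurons, ran from 16.1 to 216 CPM (median 192) against 0 to 48.4 CPM, again higher in 7 of 7 (log2 4.24 ± 1.17). Cux1, the relative of Cux2, ran from 21.7 to 311 CPM (median 200) against 1.97 to 155 CPM, higher in 7 of 7 (log2 2.22 ± 0.67). The ranges of superficial and deep sums overlap for all 3 genes, and the order within each construct was the same. DESeq2 called all 3, with adjusted p of 0.000162, 0.000446 and 0.019.

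Of 9 other upper-layer genes tested, 7 were above 0 (median log2 2.22), and 3 were higher in superficial nuclei in every construct, beside 0.703% of all genes in that direction and 0.941% in the other. Il1rapl2, a synaptic adhesion gene, averaged 112 ± 104 CPM against 3.62 ± 6.17 CPM (SD, n = 7 constructs). The 2 below 0 were Lamp5 and Inhba. Kctd16, an auxiliary subunit of GABA-B receptors, was read in every member, at 246 to 850 CPM (median 446) in superficial and 51.6 to 349 CPM in deep sums (log2 1.72 ± 0.47, higher in 6 of 7).

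Genes lower in superficial nuclei included guidance and matrix genes. Sema3e, a secreted semaphorin known from layer 6, was at 0 in 5 of 7 superficial sums, with the others reaching 41.5 CPM, and ran from 31 to 318 CPM in deep sums (median 91.5). Its log2 difference was -7.85 ± 1.62, lower in 7 of 7, and 2 of the 60 members had a read of it. Col6a1, a collagen VI chain, was at 0 in 5 of 7 superficial sums and at 27.9 to 133 CPM in deep ones (log2 -7.74 ± 1.78, lower in 7 of 7). Sema3e and Col6a1 were called by both DESeq2 and limma-voom, with adjusted p of 0.0136 for both in limma-voom. Epha7, an ephrin receptor, ran from 11.8 to 202 CPM against 235 to 433 CPM, with no overlap (log2 -2.37 ± 0.60). Nrp1, the semaphorin co-receptor, averaged 11.2 ± 13.8 CPM against 137 ± 82.3 CPM and was lower in 6 of 7. Nfib, a nuclear factor I gene, averaged 100 ± 64.7 CPM against 359 ± 172 CPM, also lower in 6 of 7.

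Of 14 other deep-layer genes tested, 12 were below 0 (median log2 -2.38), with Deptor and Foxp1 above. Crym, a thyroid hormone binding protein gene of layers 5 and 6, was at 0 in 4 of 7 superficial sums and at most 41.8 CPM, against 0 to 510 CPM in deep sums (median 105; log2 -4.66 ± 1.48). Parm1 was at 0 in 5 superficial sums, against a deep median of 64.7 CPM. The signs of these 2 lists are part of what the rule selects through linked expression. They are given as a description and are no independent check of the label. Without the nuclei over 0.3% mitochondrial reads the list medians were 1.64 and -1.37, and in pool S40317 alone 2.30 and -3.08. Without BORG-SYFP2-H2B-BC the upper-layer median was 3.51, and without SYFP2-H2B-3xBORG-BC the deep-layer median was -1.37.

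**Figure D3:**
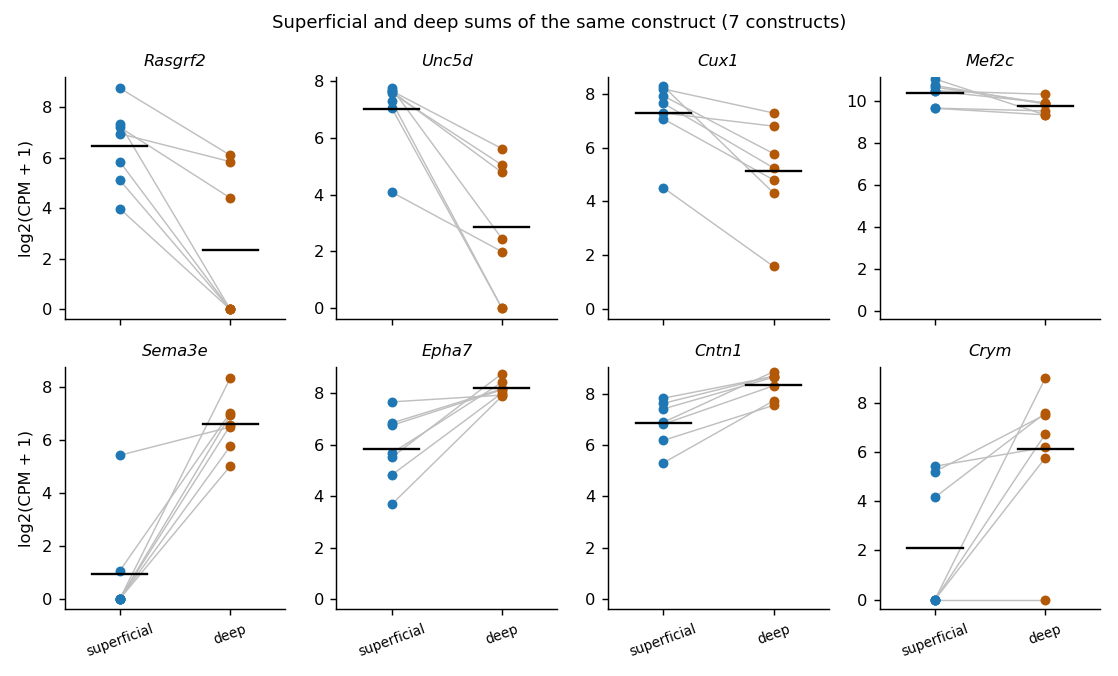
Levels of 8 genes on a log2(CPM + 1) axis in superficial and deep sums, with lines joining the 2 sums of a construct and bars at the means over 7 constructs. Rasgrf2, Unc5d, Cux1 and Mef2c slope down to the deep side in every construct, and Sema3e, Epha7 and Cntn1 slope up.

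Channels, receptors and adhesion genes showed smaller displacements between the layers, none called. Of 30 voltage-gated potassium channel genes 21 were above 0 (median log2 0.49), and of 15 calcium channel genes 13 were (0.47), beside 51.3% of all genes (median 0.03). With layer sums at least 2 times apart the potassium median was -0.18. It was 0.20, 0.21 and 0.30 without SYFP2-P2A-3XFLAG-H2B, 3xBORG-SYFP2-H2B-BC and SYFP2-H2B-3xBORG-BC, and the calcium median was 0.14 and 0.24 without U7snRNAOPT-SYFP2-H2B-BC and dTomato-H2B. Cacna1b, the N-type calcium channel, ran from 87.7 to 383 CPM in superficial and 2.66 to 119 CPM in deep sums, and Kcnc2, a Kv3 channel, averaged 154 ± 107 CPM against 40.05 ± 44.92 CPM; each was higher in 6 of 7 constructs. Gabrd, the delta subunit of extrasynaptic GABA-A receptors, was higher in 7 of 7 (138 ± 81.7 against 37.3 ± 50.5 CPM), whereas Gabrg3 was lower in 6 of 7 (45.7 ± 52.9 against 140 ± 88.99 CPM). Cntn1, a contactin, was lower in 7 of 7 (133 ± 67.5 against 342 ± 107 CPM), Pcdh15, a protocadherin, higher in 7 of 7 (111 ± 94.5 against 18.1 ± 25.3 CPM), and Gria4, an AMPA receptor subunit, higher in 5 of 7.

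Of 15 other excitatory cortical genes 13 were above 0 (median log2 0.39, or 0.24 without SYFP2-P2A-3XFLAG-H2B and 0.67 without BORG-SYFP2-H2B-BC). Mef2c, an activity-regulated MADS-box factor, ran from 815 to 2155 CPM against 655 to 1297 CPM and was higher in 7 of 7 (log2 0.65 ± 0.28). Slc30a3, the synaptic vesicle zinc transporter, averaged 168 ± 94.6 CPM against 61.1 ± 82.3 CPM, higher in 5 of 7. All 11 mitochondrial transcripts tested were below 0 (median -1.17), with mt-Nd4 at 0 to 1347 CPM against 148 to 1831 CPM and lower in 7 of 7. Malat1 averaged 175700 ± 91060 CPM against 124500 ± 61970 CPM, and Miat 600 ± 437 CPM against 294 ± 153 CPM, each higher in 6 of 7. Over 0.3% mitochondrial reads were found in 9 of 60 members and 22 of 59 deep nuclei, with 8 and 20 of these in pool S40317. The part of RNA content in the layer values was not tested. The share of mitochondrial reads, as the mean over constructs of each construct's median nucleus, was 0.575% ± 0.734 in superficial and 0.574% ± 0.941 in deep nuclei (SD, n = 7; exact paired permutation over constructs, two-sided p = 0.953, 0.953 adjusted over 2 such tests). Genes per nucleus were 4980 ± 1834 and 4360 ± 2089 (exact paired permutation p = 0.172, adjusted 0.344; the smallest p possible was 0.0156). Neither difference exceeded the spread between constructs.

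The second question was how superficial excitatory nuclei differ from the interneurons sorted with them. Here 10 constructs gave paired sums (52 superficial and 129 interneuron nuclei, with 12964965 and 34333264 reads in all), and 252 of 9189 genes were called by edgeR (2.74%), with 1165 at an unadjusted p under 0.05 (12.7%). Of these, 87 rose in superficial nuclei (0.947%) and 165 fell (1.8%). The median over all genes was -0.61 on the log2 scale, so differences are relative to a scale that is not centred at 0. Under DESeq2 1467 genes were called with 342 higher, and under limma-voom 562 with 215 higher. Without pool S40317, with 4 construct pairs (29 superficial and 59 interneuron nuclei), 63 genes were called. Leaving out nuclei over 0.3% mitochondrial reads, with 7 pairs, gave 125. The 7 rule genes and the 9 that defined interneurons were left out.

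Excitatory cortical genes rose. Slc17a7 and Gad1 chose both sides, so this direction is part of what the rules select. It is given as a description and is no independent check of the label. Of 13 other excitatory cortical genes tested, 10 were called higher, beside 0.947% of all genes, and all 13 were above 0 (median log2 4.72). Neurod6, a basic helix-loop-helix factor of cortical pyramidal neurons, ran from 39.4 to 490 CPM over the 10 superficial sums (median 267) and was at 0 in 8 of 10 interneuron sums, with a highest value of 15.3 CPM. Its log2 difference was 10.16 ± 1.06 (edgeR adjusted p = 4.16e-06). Sv2b, a synaptic vesicle protein gene, ran from 34.9 to 505 CPM against 0 to 113 CPM (log2 7.28 ± 1.34, adjusted p = 0.00258). Nrn1, the secreted neuritin, ran from 40.7 to 178 CPM against 0 to 5.62 CPM. Superficial sums lay above the interneuron sum of their construct in 10 of 10 cases for all 3.

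Genes less often listed as excitatory markers were among the largest rises. Pamr1, a secreted protease-like gene, was read in 26 members, at 7.30 to 1673 CPM over the superficial sums (median 90.9), and had no read in the 129 interneurons summed, against 3425 reads. It was at least 3023-fold higher against a floor of 3 reads over all interneuron sums (edgeR adjusted p = 2.27e-05). The sum of SYFP2-H2B-3xsmOPT-BC, at 1673 CPM, weighed most: without that construct 1413 reads remained and the bound was 1262-fold. Dtl, a ubiquitin ligase adaptor gene, had 1108 reads against 1, a ratio of 2934 per read sequenced (exact 95% counting interval 525.5 to 116000). Inf2, a formin, ran from 37.4 to 369 CPM against 0 to 48.1 CPM, and Kcnh4, an ELK-type potassium channel, from 2.92 to 147 CPM against 0 to 16.04 CPM. Fam19a1, a chemokine-like secreted protein gene, averaged 272 ± 230 CPM against 5.30 ± 10.1 CPM (SD, n = 10), and the unnamed transcript 9130024F11Rik 54.5 ± 20.3 CPM against 0.471 ± 1.49 CPM. All 34 genes followed across settings in this comparison kept their direction in every setting run. Without pool S40317, where 4 construct pairs remained, 16 lost their call, among them Dtl, Nrn1, Kcnh4, Fam19a1, 9130024F11Rik and Sv2b.

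Most immediate early genes tested lay higher in superficial nuclei, and a minority were called. Arc, an immediate early gene of synapses, ran from 62.8 to 1147 CPM (median 252) against 0 to 8.996 CPM (log2 9.52 ± 1.10, adjusted p = 1.55e-05). Of 10 immediate early genes tested 3 were called higher (Arc, Nr4a1 and Homer1), beside 0.947% of all genes. Of the 10, 9 were above 0 (median log2 1.97, beside -0.61 over all genes). Homer1, a postsynaptic scaffold, ran from 67.1 to 784 CPM against 7.65 to 171 CPM, and Nrgn from 255 to 2326 CPM against 37.8 to 161 CPM with no overlap (log2 3.30 ± 0.37). Arc and Homer1 lost the call without pool S40317, where 4 construct pairs remained in place of 10. The part of the smaller number of sums in this loss was not tested. Slit3, a guidance ligand, averaged 101 ± 39.05 CPM against 9.99 ± 14.4 CPM, Epha4 276 ± 108 against 68.7 ± 51.2 CPM, and Foxp1 325 ± 152 against 38.3 ± 36 CPM, all called and higher in 10 of 10. Miat, a noncoding RNA, was called at 565 ± 363 against 154 ± 101 CPM, higher in 9 of 10.

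Genes of the GABAergic lineage fell. Gad1 and Slc17a7 chose both sides and interneuron genes chose the interneurons, so this direction too is part of what the rules select. Of 16 tested genes of the interneuron list 15 were called lower, beside 1.8% of all genes, and the other, Kcnc2, was below 0. The median log2 was -9.64, or -8.43 with 6 genes without a superficial read set to their bounds. Gad2, the second GABA-synthesizing enzyme, was at 0 in 9 of 10 superficial sums and 98.0 CPM in the other, against 197 to 2186 CPM (log2 -11.16 ± 1.04, adjusted p = 7.2e-07). Dlx1 had no read against 3964, at least 499-fold lower, and Dlx6os1 none against 7050, at least 887-fold lower. Erbb4, the neuregulin receptor of interneurons, was at least 1350-fold lower in the summed nuclei, and 1 of the 60 members, outside the sums, had a read of it. Sox6 and Nxph1, a factor and a neurexophilin of medial interneurons, had 4 and 20 reads against 6086 and 12902 in the summed nuclei. The member with Sox6 at 164.8 CPM named above lies outside these sums and held 95.6% of the members' summed Sox6 CPM.

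Of 13 genes tested from the neuropeptide and growth factor list, 2 were called higher (Nrgn and Cck) and 3 lower (Npy, Scg2 and Tac1). Over all genes 0.947% and 1.8% were called. Nrgn, the calmodulin-binding protein gene named above, is neither a neuropeptide nor a growth factor. Npy, neuropeptide Y, averaged 8.80 ± 19.4 CPM in superficial and 5135 ± 3374 CPM in interneuron sums (adjusted p = 6.48e-07), and Crhbp, the corticotropin-releasing hormone binding protein, was at least 989-fold lower. Of 33 potassium channel genes 4 were called higher and 4 lower, beside 0.947% and 1.8% of all genes. Kcnc1, the Kv3.1 channel of fast spiking, ran from 36.2 to 149 CPM against 245 to 1146 CPM with no overlap (log2 -2.65 ± 0.39, adjusted p = 0.000264). Kcnip1, a Kv4 partner, was at 0 in 8 of 10 superficial sums and at most 7.74 CPM, against 139 to 476 CPM. Calcium channel alpha2delta subunits went opposite ways: Cacna2d1 rose (360 ± 199 against 83.3 ± 101 CPM, log2 3.23 ± 0.70), and Cacna2d2 had no read in superficial sums against 3206, at least 404-fold lower.

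Receptor and adhesion lists held fewer calls. Grin3a, an NMDA receptor subunit gene, fell (6.39 ± 13.5 against 128 ± 117 CPM). Of 40 synaptic adhesion genes 4 were called lower and 1 higher, beside 1.8% and 0.947% of all genes. Cntnap4, a neurexin-like gene, averaged 2.48 ± 4.13 against 114 ± 79.6 CPM. Cdh13, a cadherin without a cytoplasmic tail, was at 0 in 7 of 10 superficial sums and 326 CPM in 1 (mean 46.6 ± 103 against 286 ± 129 CPM). Parm1 (7.13 ± 13.5 against 85.9 ± 55.2 CPM), Moxd1 and Sema4g also fell, the last pair by at least 578-fold and 397-fold.

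**Figure D4:**
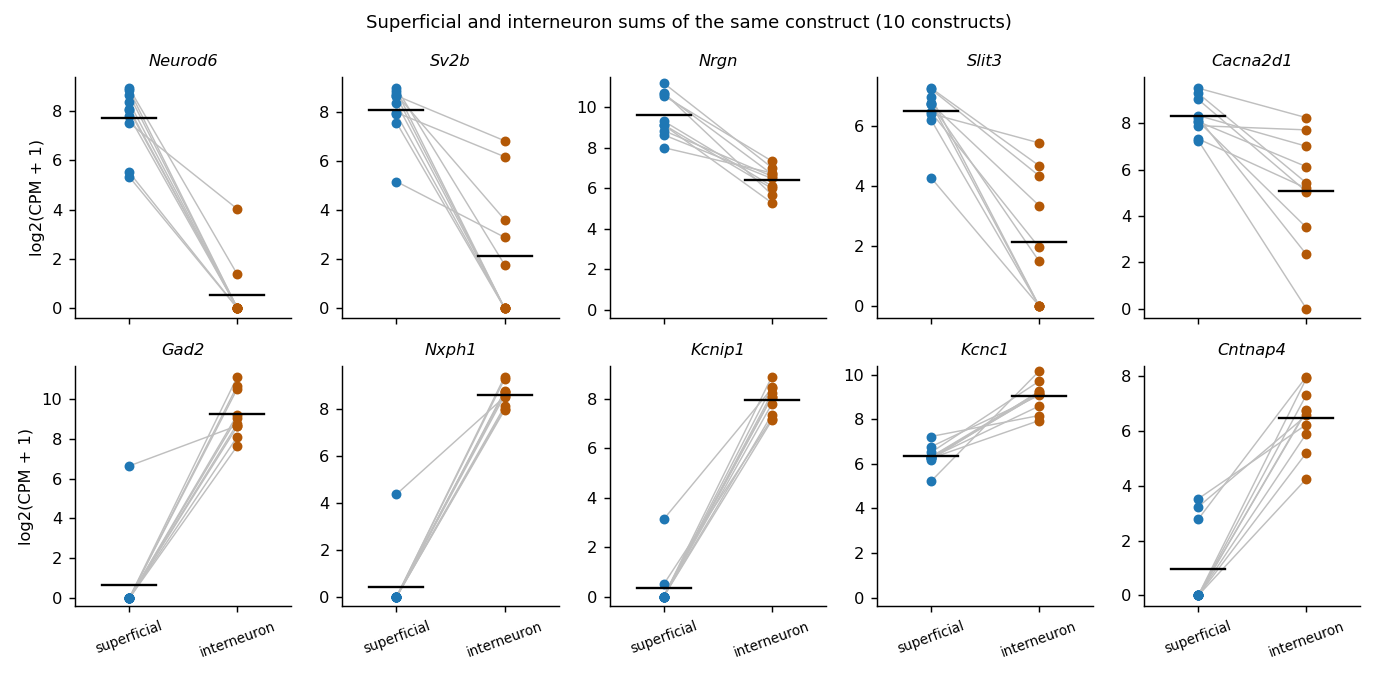
Levels of 10 genes on a log2(CPM + 1) axis in superficial and interneuron sums, with lines joining the sums of a construct and bars at the means over 10 constructs. The first 5 genes slope down to the interneuron side and the last 5 slope up, in every construct.

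Promoter sequences of 4 called genes are shown, each picked for a match to either motif below. A gene with several listed starts is shown by a start with a match. CAGATG (reverse complement CATCTG) is an E-box bound by factors of the Neurod type, and TAATTA (its own reverse complement) is the core bound by Dlx-type homeodomains. The 250 bases before the start of transcription were searched on both strands in the RefSeq promoter table (build GRCm38.p6), and capitals mark the match.
Nrgn, higher, chr9:37552746-37552995, minus strand: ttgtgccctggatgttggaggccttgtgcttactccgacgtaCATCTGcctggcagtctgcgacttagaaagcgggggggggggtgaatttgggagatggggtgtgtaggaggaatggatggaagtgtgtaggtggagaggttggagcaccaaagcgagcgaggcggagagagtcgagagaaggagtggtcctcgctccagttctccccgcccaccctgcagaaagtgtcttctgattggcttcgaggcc
Gad2, lower, chr2:22622077-22622326, plus strand: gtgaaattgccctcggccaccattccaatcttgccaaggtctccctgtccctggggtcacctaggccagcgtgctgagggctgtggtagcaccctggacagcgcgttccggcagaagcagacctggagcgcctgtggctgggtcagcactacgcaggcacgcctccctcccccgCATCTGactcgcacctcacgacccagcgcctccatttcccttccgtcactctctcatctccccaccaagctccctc
Foxp1, higher, chr6:99266516-99266765, minus strand: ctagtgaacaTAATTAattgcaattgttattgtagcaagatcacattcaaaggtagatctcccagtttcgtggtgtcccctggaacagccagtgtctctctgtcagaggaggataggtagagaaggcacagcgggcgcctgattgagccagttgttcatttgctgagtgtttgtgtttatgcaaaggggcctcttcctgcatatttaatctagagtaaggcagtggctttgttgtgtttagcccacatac
Dlx6os1, lower, chr6:6861684-6861933, minus strand: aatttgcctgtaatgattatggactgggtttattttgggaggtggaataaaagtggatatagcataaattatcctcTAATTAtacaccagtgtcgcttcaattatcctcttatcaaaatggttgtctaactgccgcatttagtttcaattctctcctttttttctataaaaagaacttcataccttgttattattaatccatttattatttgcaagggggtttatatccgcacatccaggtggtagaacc

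The E-box was present in 11 of 106 promoters of the 63 matched genes that rose (10.4%) and in 20 of 174 promoters of the 122 matched genes that fell (11.5%), beside 9.4% for all genes tested and 14.4% for all 32851 promoters of the table. TAATTA was present in 3.8% and 5.2%, beside 2.4% and 4.8%. Thus either motif occurred on both sides of the comparison. A match is a description of the letters and no binding was measured.

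Within the members, nuclei led by Cux2 and by Rorb were compared in 4 sums of 21 nuclei and 5 sums of 18 nuclei, without a construct block. SYFP2-P2A-3XFLAG-H2B alone had sums on both sides, so construct and leading gene cannot be told apart for the other sums. By edgeR 0 of 8122 genes were called (0.0%), with 115 at an unadjusted p under 0.05 (1.42%); DESeq2 called 11 and limma-voom 0. Each edgeR adjusted p was 1. Otof, the otoferlin gene and a layer 2 and 3 marker, was at 20.4, 26.2, 120 and 210 CPM in the Cux2-led sums and at 0 in all 5 Rorb-led sums, with 334 reads against none, at least 107-fold higher. Over all members it was read in 8 of 31 Cux2-led nuclei and 0 of 29 Rorb-led ones, which allows a share of up to 10.3%, and in 3.8% of glial nuclei.

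Rasgrf2 was at 128, 234, 427 and 527 CPM in Cux2-led sums and at 0 to 94.5 CPM in Rorb-led sums, with no overlap (log2 3.56 ± 1.18). Gria3, an AMPA receptor subunit, was at 637 to 990 CPM against 19.8 to 504 CPM, also without overlap (log2 1.98 ± 0.66), as for 1.6% of genes in this direction and 0.443% in the other. Cdh7, a cadherin, was at 8.08 to 156 CPM against 0 to 10.7 CPM. Dyrk3, a kinase gene, had 325 reads against none, and Gsg1l, an AMPA receptor auxiliary subunit, 552 against 12. Of 12 other upper-layer genes tested 10 were above 0 (median log2 0.67), beside 0.06 over all genes. Without U7snRNAOPT-SYFP2-H2B-BC 9 of 14 were above 0 (median 0.22), and with limma-voom the median was 2.03, beside 0.45 over all genes.

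Rorb-led nuclei carried other genes. Pcp4, a calmodulin regulator common in deep layers, was at 0, 205, 358, 396 and 1567 CPM in Rorb-led sums and at 0, 0, 10.8 and 102 CPM in Cux2-led sums (log2 -4.17 ± 1.54). Thsd7a and Whrn had no read in the Cux2-led sums and 595 and 394 reads in the Rorb-led sums, and Dennd3 366. Junb, an immediate early factor, was at 77.6 to 486 CPM against 0 to 105 CPM (log2 -2.70 ± 1.01), and 12 of 14 immediate early genes were below 0 (median -1.52, or -0.65 without SYFP2-H2B-3xsmOPT-BC). All 8 other deep-layer genes tested were below 0 (median -0.73, or -0.41 without SYFP2-H2B-BORG-BC), but 4 of 5 were above 0 without the nuclei over 0.3% mitochondrial reads. Pool S40317 held 13 of the 29 Rorb-led nuclei and 6 of the 31 Cux2-led ones, and Egr1 was read in 17 of its 19 members. Leading gene and pool are thus partly confounded for all genes compared here, immediate early genes included. The parts of leading gene, pool and construct were not tested. Mobp averaged 563 ± 1216 CPM in Rorb-led sums through the 1 nucleus named above.

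**Figure D5:**
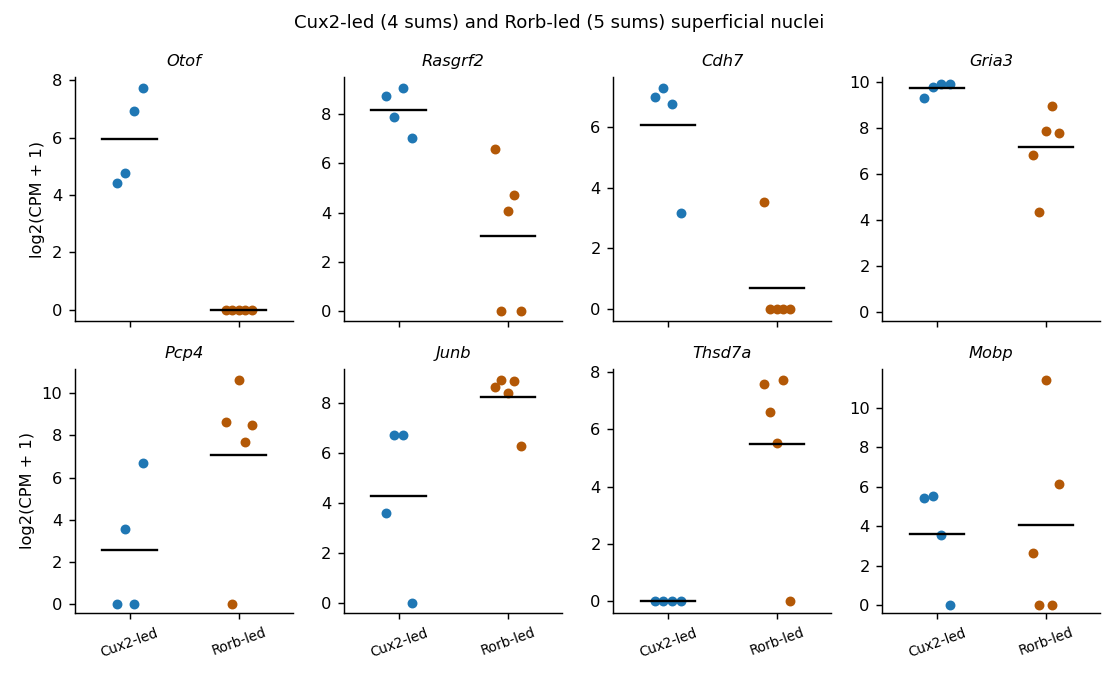
Levels of 8 genes on a log2(CPM + 1) axis in Cux2-led and Rorb-led sums of superficial nuclei, each point a sum of at least 3 nuclei and each bar a mean. Otof is at 0 in all Rorb-led sums, Thsd7a at 0 in all Cux2-led sums, and 1 Mobp sum stands at 2737 CPM.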

How the data were processed

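SMART-Seq v4 libraries of 904 single nuclei were used, each labelled with its construct, virus number and library pool. The deposited table holds raw read counts per gene and nucleus; per the submitters' processing notes, the aligner was STAR 2.7.2a and the genome build mm10, and the counting step is not given in the sources used here. Of 2501 columns, 1597 belong to no sample of the series and were not used. Of 32285 gene identifiers, 32158 matched a symbol and 127 did not. The libraries carry no molecular identifiers, so intervals cover counting error only, and near-identical genes may share reads.

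The members, gene lists and named genes were chosen with earlier results of these data known. Named genes were, in each comparison, the 10 largest changes in each direction among called genes with at least 20 CPM, reads in at least 25% of nuclei and 1 direction in every construct, or, with under 5 called genes, the 3 lowest p-values each way, and the 2 genes of each list with the lowest p. Reads were summed per construct and class with at least 3 nuclei a sum. Sums were tested with edgeR 4.0.16 (TMM scaling, low-count filter, quasi-likelihood test, R 4.3.3) with construct as a block for the deep-layer and interneuron comparisons and none for the pool and Cux2 against Rorb comparisons. Genes with a Benjamini-Hochberg adjusted p under 0.05 are called. Genes of the rules were left out of the tests. Quality measures were compared by exact paired permutation (scipy 1.17.1). Alternatives were DESeq2 1.42.0, limma-voom (limma 3.58.1), other scalings, filters, groupings, gates and thinning to 30000 reads, and leaving out each construct. The edgeR step was tested on data simulated with the library sizes of each comparison and no construct effect. Promoters came from RefSeq (GRCm38.p6). Some named genes are not reported here.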

Additional observations from a re-analysis of the deposited data

Results flagged for a closer look

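Of 164 groups of 4 to 10 sums examined for the named genes, 35 had a highest or lowest sum far from the others by Dixon's ratio; chance flags about 1 in 20 groups, and many of these groups hold mostly zeros. All values are CPM of a construct's sum.

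Against deep nuclei, construct U7snRNAOPT-SYFP2-H2B-BC was highest for superficial Rasgrf2 (432.6) and deep Sema3e (317.5) and lowest for superficial Gria4 (122.3). SYFP2-H2B-3xBORG-BC was highest for superficial Sema3e (41.51) and Col6a1 (21.4). Superficial Unc5d was lowest in BORG-SYFP2-H2B-BC (16.08), superficial Parm1 highest in SYFP2-H2B-BORG-BC (39.19), deep Crym in 3xBORG-SYFP2-H2B-BC (510.1) and deep Gabrd in SYFP2-P2A-3XFLAG-H2B (145.7).

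Against interneurons, single superficial sums stood high for Pamr1 (1673) and Arc (1147), both in SYFP2-H2B-3xsmOPT-BC, and for Dtl (266.2) and Nxph1 (19.57), both in dTomato-H2B. The same held for Gad2 (97.97) and Sox6 (3.499) in SYFP2-H2B-BORG-BC, Kcnip1 (7.738) in SYFP2-H2B-3xBORG-BC and Cdh13 (325.5) in BORG-SYFP2-H2B-BC. Single interneuron sums stood high in SYFP2-H2B-3xsmOPT-BC for Inf2 (48.13), Kcnh4 (16.04), Fam19a1 (30.48) and Foxp1 (124.6). SYFP2-H2B-3xBORG-BC was the high interneuron sum for Grin3a (426.3) and Homer1 (171.1). U7snRNAOPT-3'box-SYFP2-H2B-BC was high for Arc (8.996) and 9130024F11Rik (4.712). Neurod6 (15.3), Dtl (0.268) and Sox6 (527.4) each had 1 high interneuron sum.

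Outside pool S40317, mt-Nd1 had 1 sum above 0 (49.04). In the Cux2-led against Rorb-led comparison, Rorb-led sums stood high for Dennd3 (245.5), Rasgrf2 (94.49), Pcp4 (1567), Cdh7 (10.67) and Mobp (2737), and a Cux2-led sum for Pcp4 (101.8). The Pcp4 and Mobp sums of 1567 and 2737 belong to the same construct, SYFP2-H2B-BORG-BC.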

How the results depend on the processing

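No paired analysis was possible because the replicate numbers in the titles count nuclei and tie no samples across groups, so that the replicate number gives no block; sums were paired by construct label instead. For superficial against deep nuclei, 94 genes were called by DESeq2, 5 by limma-voom, 12 with no low-count filter, 1 with at least 2 nuclei a side, 2 with at least 5 and 1 with layer sums at least 2 times apart, and 0 leaving out any construct. Against interneurons the count of 252 became 1467 (DESeq2), 562 (limma-voom), 549 (no filter), 479 (no construct block), 93 (at least 5 nuclei a side), 125 (at most 0.3% mitochondrial reads) and 63 (without pool S40317), and 192 to 272 leaving out a construct. For pool S40317, 66 genes were called by DESeq2, 15 by limma-voom, 44 with no filter, 23 with at least 2 nuclei, 14 after thinning, 0 by virus number, 0 without the P2A constructs and 0 to 28 leaving out a sum. The Malat1 call was lost by virus number (adjusted p = 0.999 by edgeR), without the P2A constructs (0.316) and after thinning (0.174). Between Cux2-led and Rorb-led nuclei 11 genes were called by DESeq2, 8 with no filter and 0 leaving out any construct. Mobp turned to higher in Cux2-led nuclei on the log2 scale with limma-voom (0.0217), by virus number (0.113), at most 0.3% mitochondrial reads (0.619), the stricter excitatory gate (0.0813), layer sums 2 times apart (0.285) and, over constructs left out, ranged from -5.3 to 0.3, above 0 without SYFP2-H2B-BORG-BC. The mitochondrial share difference of 0.00152 points became -0.00581 (at least 2 nuclei), -0.0142 (at least 5), -0.137 (virus number), -0.0155 (at most 0.3%), -0.0524 (without pool S40317), -0.744 (that pool alone), -0.151 (stricter gate), -0.0243 (layer sums 2 times apart), -0.0722 (thinned) and -0.153 to 0.133 leaving out a construct. The difference in genes per nucleus of 619.8 became -433.0 (at least 5 nuclei), -413.4 (virus number), -218.3 (pool S40317 alone), -21.1 (layer sums 2 times apart) and 237.2 to 804.9 leaving out a construct. Over single named genes, 741 values against interneurons kept direction and side of the threshold and 49 lost the call, 16 of them without pool S40317 and 5 at most 0.3% mitochondrial reads; against deep nuclei 461 kept both and 23 passed it. Superficial nuclei were 5.509% of kept nuclei after thinning. The causes were not tested. Too few sums remained for superficial against deep without pool S40317, for the pool and leading-gene comparisons with at least 5 nuclei, for the pool comparison at 0.3% mitochondrial reads or against S40327 alone, and for the leading-gene comparison without S40317.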

Other observations

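The 24 excitatory nuclei with no read of the 5 layer genes carried Slc17a7 at 148 to 1520 CPM (median 680). Their median nucleus had reads of 4 other upper-layer and 4 other deep-layer genes, with more upper-layer genes in 8 nuclei, more deep-layer genes in 14 and equal numbers in 2. Sema3e was read in 6 of them, against 2 of 60 superficial and 30 of 59 deep nuclei, and Otof in none.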
